A study of Mus musculus with 37 samples.

Results

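The genes of adenosine handling and sensing were followed in astrocytes isolated from the hippocampus of mice with and without post-traumatic epilepsy. They are 9 of the 21975 genes in the deposited tables and were taken as a named list: Adk and Ada, which clear adenosine, the ectonucleotidases Entpd2 and Nt5e, the transporters Slc29a1 and Slc29a2, and the receptors Adora1, Adora2a and Adora2b. Entpd2 acts mainly on ATP, and Nt5e performs the step from AMP to adenosine. All 9 symbols were found in both the count and the TPM tables.

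The mice were adult wild-type males, named CD31 in the deposited labels and CD1 in the methods. Injured mice received a controlled cortical impact (CCI) on 1 side of the brain, at the deeper of the impact depths of the study, and sham mice the craniectomy without the impact. Every group also carried an implanted electrode for EEG recording. Injured mice with repeated seizures on EEG were termed PTE+ and the other injured mice PTE-. At 4 months after surgery, astrocytes of each hippocampus were captured with magnetic beads against ACSA-2, which marks the astrocyte surface, and the impacted (ipsilateral) and opposite (contralateral) hippocampus gave separate libraries. The contralateral libraries came from 5 PTE+, 10 PTE- and 5 sham mice, and the ipsilateral ones from 4, 8 and 5. All 17 mice with an ipsilateral library also had a contralateral one.

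Adenosine is a purine nucleoside that dampens excitatory transmission and is known as an endogenous anticonvulsant. In the brain much of it arises outside the cell, where ectonucleotidases strip phosphates from ATP released by glia and neurons, and equilibrative transporters then carry it across the membrane along its gradient. Inside the cell adenosine kinase returns it to AMP, a step which in the adult brain runs mainly in astrocytes, while adenosine deaminase turns it into inosine. The receptor encoded by Adora1 lowers cyclic AMP, and those of Adora2a and Adora2b raise it.

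Libraries held between 25371887 and 59846479 counts. The number of genes with more than 3 counts, which was taken as the counting limit of a library, had a median of 13533 over the 37 libraries but was only 7666 in the ipsilateral library of the PTE- mouse a8_11 and 9740 in that of the sham mouse a9_9. The 10 astrocyte markers checked, among them Aldoc, Slc1a3 and Aqp4, exceeded the counting limit in all 37 libraries and summed to between 5909 and 21092 TPM, with the lowest sum in an ipsilateral PTE- library. Markers of other cells were present too, with summed TPM of 27.1 to 1038 for 7 microglial genes, 9.82 to 1055 for 7 neuronal genes, 18.96 to 1717 for 6 oligodendrocyte genes and 31.4 to 5388 for 5 endothelial genes. The 4 genes of ependyma and choroid plexus summed to 37.5 to 8865 TPM, with a median of 341. Of these, Ttr was listed at 0 in 12 of the 17 ipsilateral libraries but reached 7448 TPM in PTE- mouse a9_12 and 4671 TPM in PTE- mouse a8_11. Folr1 was at 0 in only 2 of those 17. Over all 37 libraries Ccdc153 exceeded the counting limit in 36 and Foxj1 in 37. The part of these other cells in the values of the adenosine genes was not tested. These values are from bulk RNA, in which fewer cells of a type and less RNA per cell cannot be told apart.

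**Figure D1:**
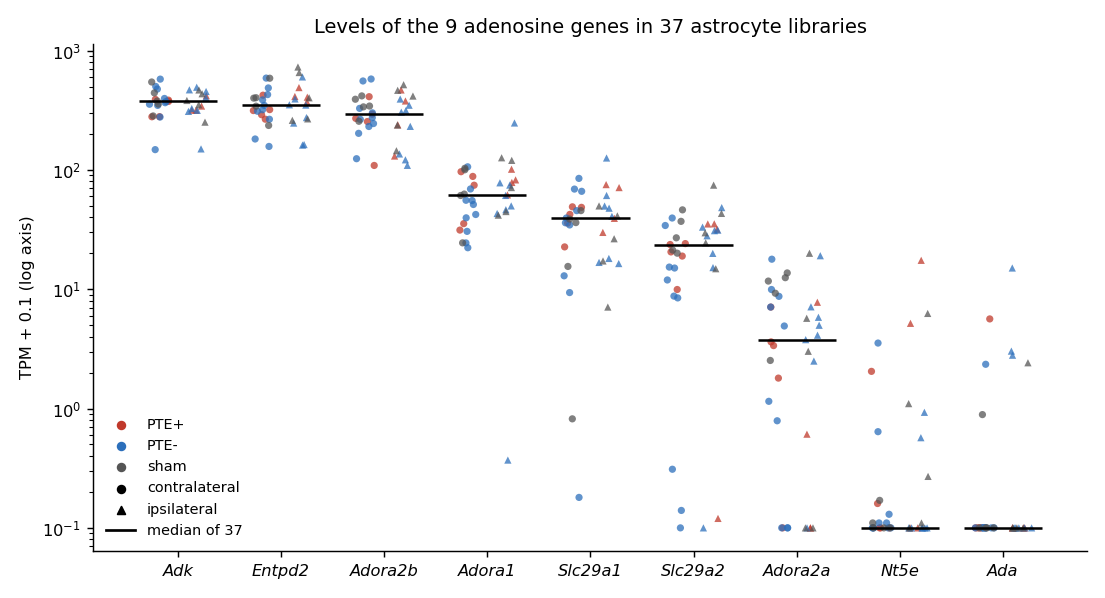
Level of each gene in TPM, plus 0.1, on a log axis. Points are libraries, coloured by group, with circles for the contralateral and triangles for the ipsilateral hippocampus, and the line is the median of 37 libraries. Adk, Entpd2 and Adora2b lie together at the top with medians of 375, 350 and 293 TPM, while the medians of Nt5e and Ada are at 0.

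The genes fell into a high, a middle and a low range of levels. TPM, which is scaled by transcript length and so can be compared between genes, was highest for Adk, with a median of 375 and a range of 148 to 577 over the 37 libraries, above 98.6% of all genes in the tables. Entpd2 was close behind at 350 (157 to 729). Adora2b followed at 293 (109 to 578). These neighbours did not separate beyond their spread: Adk was the highest of the 9 genes in 15 libraries, Entpd2 in 16 and Adora2b in 6. Adora1 had a median of 61.0 TPM, Slc29a1 of 39.2 and Slc29a2 of 23.6. The last pair overlapped as well, with Slc29a1 above Slc29a2 in 26 of 37 libraries. Adora2a lay far lower, at 3.68 TPM, and was at or under the counting limit in 9 libraries.

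At the bottom, Nt5e exceeded the counting limit in 12 libraries and Ada in 7. The enzymes that clear adenosine and the ectonucleotidases were each represented by 1 abundant and 1 sparse gene, and Nt5e, which releases adenosine from AMP, was the sparse ectonucleotidase. Adk was above Ada in 37 of 37 libraries, and by 165-fold at the median of the 7 libraries in which Ada was not 0. Entpd2 was above Nt5e in all 37 as well. Among the receptors, Adora2b was above Adora1 in 37 of 37 libraries, by a median ratio of 4.82 (1.24 to 404), and above Adora2a in 37 of 37.

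The spread between mice differed between the genes. The SD within groups on the log2(CPM + 1) scale was 0.52 for Adk and Entpd2, 0.69 for Adora2b, 1.25 for Adora1, 1.44 for Slc29a1, 1.85 for Slc29a2, 1.55 for Adora2a, 1.28 for Nt5e and 0.95 for Ada. CPM here is the count of a gene relative to the total of its library, TMM-scaled over all 37 libraries, and is used below to compare 1 gene between libraries. Slc29a2 had the largest SD of the 9. It was at or under the counting limit in 4 libraries and above it, mostly by far, in the other 33.

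Adenosine kinase, at chr14:21052574-21448569 on the plus strand of GRCm38, held between 3900 and 30636 counts in every library. In the contralateral hippocampus the PTE+ libraries held 251, 279.8, 355, 403 and 443 CPM, and the sham libraries 280.0, 362, 379, 391 and 653 CPM. The 10 PTE- libraries ran from 151 through a median of 401 to 691 CPM. The groups overlapped throughout, and the PTE- group held both the lowest and the highest library of this side. In the ipsilateral hippocampus the PTE+ libraries held 276, 298, 339.5 and 381 CPM, the 8 PTE- libraries 208 to 564 with a median of 388, and the sham libraries 241, 302, 348, 528 and 605. The lowest ipsilateral value was that of PTE- mouse a8_11. All PTE+ libraries thus lay inside the range of the PTE- libraries on both sides.

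Mean Adk was lowest in the PTE+ group on both sides, but the ranges of the groups overlapped. Contralateral means were 346 ± 80.8 CPM in PTE+ (SD, n = 5), 419 ± 169 in PTE- (n = 10) and 413 ± 141 in sham mice (n = 5). Ipsilateral means were 324 ± 46.4 CPM in PTE+ (n = 4), 376 ± 122 in PTE- (n = 8) and 405 ± 155 in sham mice (n = 5). The edgeR quasi-likelihood fit put PTE+ against PTE- at a log2 fold change of -0.27 (95% interval -0.86 to 0.31) on the contralateral and -0.22 (-0.84 to 0.41) on the ipsilateral side. In the limma fits of log2 TPM the ipsilateral value was 0.0024 to 0.0027, beside medians over all genes of 0.25 to 0.40. On the linear scale the edgeR intervals run from 0.551-fold to 1.24-fold and from 0.559-fold to 1.33-fold. Against sham mice, PTE+ stood at -0.25 (-0.92 to 0.42) and -0.32 (-1.002 to 0.36), and PTE- at 0.02 (-0.56 to 0.60) and -0.11 (-0.68 to 0.47). None passed the test, with an adjusted p between 0.9998 and 1. Exact permutation of the group labels (two-sided) on log2(CPM + 1) gave p from 0.429 to 0.894 over these 6 comparisons. The mouse names begin with a8 or a9, a prefix the labels do not explain. Within the a8 mice the contralateral difference between PTE+ and PTE- was -0.51 on the log2(CPM + 1) scale (2 against 4 mice) and within the a9 mice 0.04 (3 against 6), while the ipsilateral ones were 0.12 (1 against 3) and -0.30 (3 against 5).

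**Figure D2:**
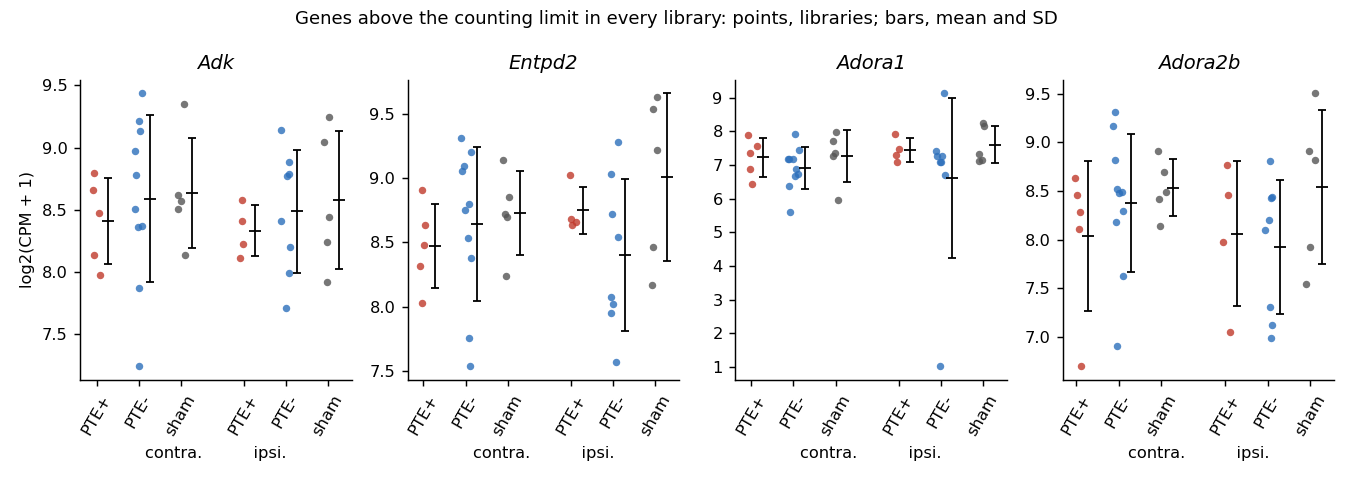
log2(CPM + 1) of the genes above the counting limit in every library, by group and hemisphere. Points are libraries and bars give the mean and SD of the group. The groups of Adk, Entpd2 and Adora2b overlap on both sides, and 1 ipsilateral PTE- library lies far below the rest for Adora1, at 1.04 CPM.

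The other clearing enzyme, Ada (chr2:163726584-163750239, minus strand), was detected only in scattered mice. In the ipsilateral hippocampus all 4 PTE+ libraries were at 0 counts, and 3 of the 8 PTE- libraries held 119, 122 and 713 counts (2.36, 2.50 and 13.6 CPM) with the others at 0. A single sham library, that of a9_11, held 109 counts. On the contralateral side 1 PTE+ library held 253, 1 PTE- library 126 and 1 sham library 5 counts, and the remaining 17 were at 0. No mouse had Ada counts on both sides.

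Set against a limit of 3 counts per library, the mean of the ipsilateral PTE- libraries was at least 41.1-fold higher than that of the PTE+ libraries, and at least 12.4-fold without mouse a9_16. This bound covers counting error in the PTE+ libraries and not the spread between mice, and the medians of both groups were 0. On the contralateral side the mean was higher in PTE+ (1.29 CPM) than in PTE- mice (0.39 CPM). For ipsilateral PTE+ against PTE- the edgeR fit gave an unadjusted p of 0.0270 and an adjusted p of 1, with a fitted log2 fold change of -9.82 that depends on the prior count and is no measure of size. Ada was the only one of the 9 genes with an unadjusted p under 0.05 in that comparison, in which 1.75% of all genes tested were under 0.05. The exact permutation test gave p = 0.418, since 5 of 8 PTE- libraries were at 0 too. Against sham mice the fitted value was -7.31 (unadjusted p = 0.0574). DESeq2 returned an adjusted p of 9.29e-08 for PTE+ against PTE- and 6.11e-05 for PTE+ against sham. The number of adenosine genes called there was 1 in each. Over all genes DESeq2 called 99 and 85 of 16933 in these comparisons, where edgeR called 0 in each. Its fitted log2 fold changes for Ada were -24.0 and -21.3 and are no measure of size either. On the contralateral side it gave 24.2 for PTE+ against PTE- and no p. Under the other alternatives the ipsilateral adjusted p lay between 0.937 and 1 for PTE+ against PTE- and between 0.9996 and 1 for PTE+ against sham.

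Of the 2 ectonucleotidases, Entpd2 (chr2:25395874-25401321, plus strand), which acts mainly on ATP and not on AMP, was abundant everywhere. It overlaps Npdc1 on the same strand, a gene that was itself at a median of 297 TPM, so how reads of the shared stretch were divided between them is uncertain. Contralateral values were 261, 318, 356, 397 and 479 CPM in PTE+ mice, 185 to 635 with a median of 437 in PTE- mice, and 301, 415, 422, 461 and 564 in sham mice. In the ipsilateral hippocampus the PTE+ libraries held 397, 403, 410.0 and 520.1 CPM, the PTE- libraries 189 to 623 with a median of 320.3, and the sham libraries 287, 353, 594, 744 and 795. The sham group here divided into a lower pair and 3 libraries at or near the highest values of the side.

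On the ipsilateral side the lowest mean of Entpd2 was in PTE- mice, at 363 ± 152 CPM (SD, n = 8), against 555 ± 228 in sham (n = 5) and 433 ± 58.6 in PTE+ mice (n = 4). The edgeR log2 fold change of PTE- against sham was -0.61 (95% interval -1.25 to 0.02), with an unadjusted p of 0.0584 and an adjusted p of 1. It was 0.25 (-0.43 to 0.94) for PTE+ against PTE- and -0.36 (-1.12 to 0.40) for PTE+ against sham. The exact permutation p of PTE- against sham was 0.112. The summed TPM of the 10 astrocyte markers was also lower in ipsilateral PTE- libraries, with a median of 13570 (5909 to 18702), against 19498 (13812 to 21092) in sham and 15421 (12965 to 17032) in PTE+ libraries, and its part in the result was not tested. The unadjusted p of Entpd2 for PTE- against sham moved between 0.0185 and 0.182 as single libraries were left out. On the contralateral side PTE+ stood at -0.25 (-0.77 to 0.28) against PTE- and at -0.26 (-0.86 to 0.34) against sham.

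Nt5e (chr9:88327197-88372092, plus strand) encodes CD73, the ectoenzyme that releases adenosine from AMP. It was at 0 counts in 20 of 37 libraries. In the ipsilateral hippocampus PTE+ mice a8_10 and a9_19 held 12.9 and 38.3 CPM (740 and 1970 counts) and the other 2 were at 0. The 8 PTE- libraries lay between 0 and 1.77 CPM, with 6 of them at 0. Sham mice held 0, 0.020, 0.308, 3.48 and 12.8 CPM. High values therefore came from 2 PTE+ mice and 1 sham mouse.

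The fitted log2 fold change of Nt5e between ipsilateral PTE+ and PTE- mice was 5.08 (95% interval -0.07 to 10.2), with an unadjusted p of 0.0530 and an adjusted p of 1. Without PTE+ mouse a9_19 it fell to 3.502 (unadjusted p = 0.186). As single libraries were left out it ran up to 6.15, with an unadjusted p from 0.0366, under 0.05 in 3 of 12 fits. Under the alternatives that keep all libraries it was 0.87 to 6.85, with unadjusted p of 0.0184 to 0.769 and an adjusted p of at least 0.898. The exact permutation p was 0.0909. Contralateral values reached 5.01 CPM in PTE+ mouse a9_19 and 8.09 CPM in PTE- mouse a9_16, and only 5 of 20 libraries exceeded the counting limit. Nt5e and Ada did not pass the low count filter on that side and were not tested there.

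The equilibrative transporters carry adenosine in either direction. Slc29a1 (chr17:45585200-45599606, minus strand) encodes ENT1 and had its lowest mean in sham mice on both sides. Ipsilateral values were 28.8, 36.2, 63.8 and 72.4 CPM in PTE+ mice, 15.6 to 174 with a median of 45.2 in PTE- mice, and 3.37, 8.02, 31.6, 37.8 and 46.7 in sham mice. The highest library was that of PTE- mouse a8_11, which also had the fewest genes detected and high Ttr. Against sham, edgeR gave log2 fold changes of 1.08 (95% interval -0.41 to 2.57) for PTE- and 0.98 (-0.71 to 2.67) for PTE+, neither past the test (unadjusted p = 0.146 and 0.238). For PTE- the value was 0.55 without mouse a8_11 and -0.062 with voom weights.

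Contralateral Slc29a1 was 31.3 to 53.9 CPM in PTE+ mice and ran from 0.056 in mouse a8_9 to 80.7 in PTE- mice. In sham mice it was 0.916 in a8_16 and 18.3 to 41.5 in the others. Single mice thus had almost no counts of a gene that their group otherwise expressed.

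Slc29a2 (chr19:5023860-5031972, plus strand), which encodes ENT2, behaved in the same uneven way. The contralateral sham libraries held 24.1, 36.5, 43.9, 56.4 and 56.8 CPM and the PTE+ libraries 14.8, 23.9, 30.2, 30.8 and 44.0, and the PTE- libraries ran from 0 through a median of 18.6 to 68.6. PTE- mice a8_9, a8_14 and a9_14 had 3, 0 and 10 counts. The log2 fold changes against sham were -0.97 (95% interval -3.12 to 1.18) for PTE- and -0.60 (-3.17 to 1.97) for PTE+, and the exact permutation p were 0.0623 and 0.103. In the 3 limma fits of log2 TPM the Slc29a2 value of PTE- against sham was -1.99, -2.83 and -1.99. The unadjusted p of these fits were 0.0217, 0.0345 and 0.0205, with adjusted p of at least 0.939. Over all genes the median in these fits was also below 0, at -0.22, -0.36 and -0.25. Genes with an unadjusted p under 0.05 numbered 631 of 14642, 581 of 14642 and 460 of 11288. Of these, 63, 62 and 64 were higher in PTE-. On the ipsilateral side PTE+ mouse a9_19 had 1 count while the other PTE+ mice had 42.3, 45.3 and 47.7 CPM. PTE- mouse a8_11 was at 0 there.

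**Figure D3:**
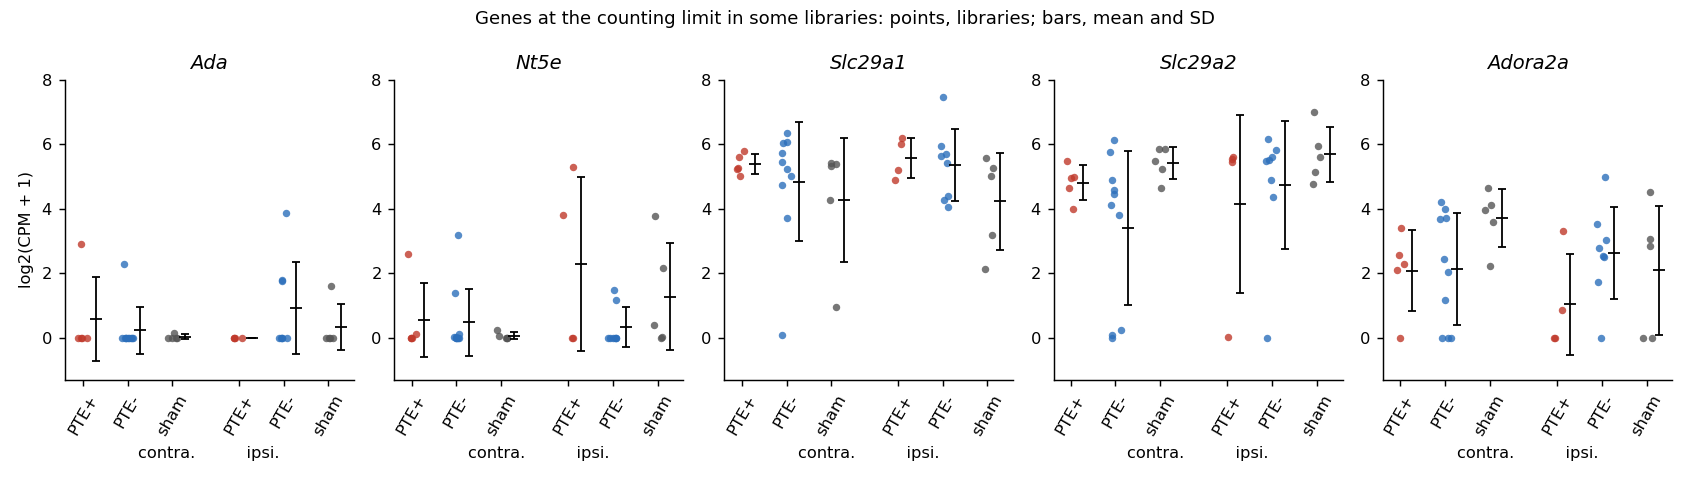
log2(CPM + 1) of the genes that were at the counting limit in some libraries, by group and hemisphere. Points are libraries and bars give the mean and SD of the group. Ada is at 0 in all 4 ipsilateral PTE+ libraries and in 5 of 8 PTE- libraries, and single libraries near 0 stand below otherwise expressed groups of Slc29a1 and Slc29a2.

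Among the receptors, Adora1 (chr1:134199223-134235431, minus strand) was above the counting limit in every library. It overlaps Mybph on the other strand, but Mybph did not exceed 3.16 TPM and was below Adora1 in all libraries. Contralateral PTE+ libraries held 86.1, 116, 162, 186 and 238 CPM, PTE- libraries 47.4 to 239 with a median of 129.8, and sham libraries 61.8, 153, 164, 210.2 and 249. The edgeR log2 fold changes were 0.29 (95% interval -0.40 to 0.97) for PTE+ against PTE- and -0.37 (-1.06 to 0.31) for PTE- against sham, neither past the test.

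The ipsilateral PTE- group of Adora1 spanned 1.04 CPM in mouse a8_11 to 557 CPM in mouse a8_14, with the other 6 mice between 102 and 170 CPM. Ipsilateral PTE+ mice held 134, 156, 176 and 242 CPM and sham mice 138, 141, 159, 282 and 300.1. The fold change of PTE+ against PTE- was 0.01 (-1.51 to 1.54), and without mouse a8_11 it was -0.14. Mouse a8_11 had 143 CPM on its contralateral side. The ipsilateral library of PTE- mouse a9_12, also high in Ttr, had 153 CPM. It had 14780 genes above the counting limit, against 7666 in that of a8_11. Whether Ttr or the number of genes detected bears on Adora1 was not tested.

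Adora2a (chr10:75316877-75334784, plus strand), a receptor gene best known from the striatum, was low. In the contralateral hippocampus sham mice held 3.69, 11.2, 14.4, 16.2 and 24.1 CPM and PTE+ mice 0, 3.31, 3.88, 4.98 and 9.54, so that 4 of 5 sham mice lay above every PTE+ mouse. The PTE- mice ran from 0, in 3 of 10 libraries, to 17.4 CPM with a median of 3.73. PTE+ was below sham by 1.63 on the mean log2(CPM + 1) scale with an exact permutation p of 0.0397, the only one of 99 such tests under 0.05. PTE- stood almost as low, at -1.58 against sham (exact permutation p = 0.0856), and PTE+ at -0.05 against PTE- (exact permutation p = 0.957). The edgeR log2 fold change of PTE+ against sham, -1.68 (95% interval -5.27 to 1.91), had an unadjusted p of 0.342. On the ipsilateral side PTE+ mice held 0, 0, 0.804 and 8.97 CPM and sham mice 0, 0, 6.19, 7.27 and 22.2. The PTE- libraries there ran from 0 to 30.6 CPM, and the log2 fold change of PTE+ against PTE- was -1.75 (-6.23 to 2.73). It lay between -4.92, without PTE+ mouse a9_17, and -1.04 as single libraries were left out.

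Adora2b (chr11:62248984-62266453, plus strand), the gene of the low-affinity receptor of the family, was the most abundant of the receptors. Contralateral values were 103, 275, 312, 351 and 395 CPM in PTE+ mice, 119 to 635 with a median of 358 in PTE- mice, and 281, 342, 359, 415 and 481 in sham mice. In the ipsilateral hippocampus PTE+ mice held 132, 251, 352 and 434 CPM, PTE- mice 126 to 449 with a median of 283, and sham mice 185, 243, 451, 483 and 725. PTE+ mouse a9_18 was the lowest of its group on both sides.

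Log2 fold changes of Adora2b were -0.36 (95% interval -1.02 to 0.30) and 0.13 (-0.73 to 1.003) for PTE+ against PTE- on the contralateral and ipsilateral side, and -0.39 (-1.14 to 0.37) and -0.51 (-1.48 to 0.45) for PTE+ against sham. Ipsilateral PTE- stood at -0.65 (-1.45 to 0.15) against sham, with an unadjusted p of 0.106, beside the lower astrocyte marker sum of these libraries given above. All these values were within the spread between mice. The ipsilateral sham mice a8_15, a9_9 and a9_11, which were high for Entpd2, were also the 3 highest of their group for Adora2b.

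**Figure D4:**
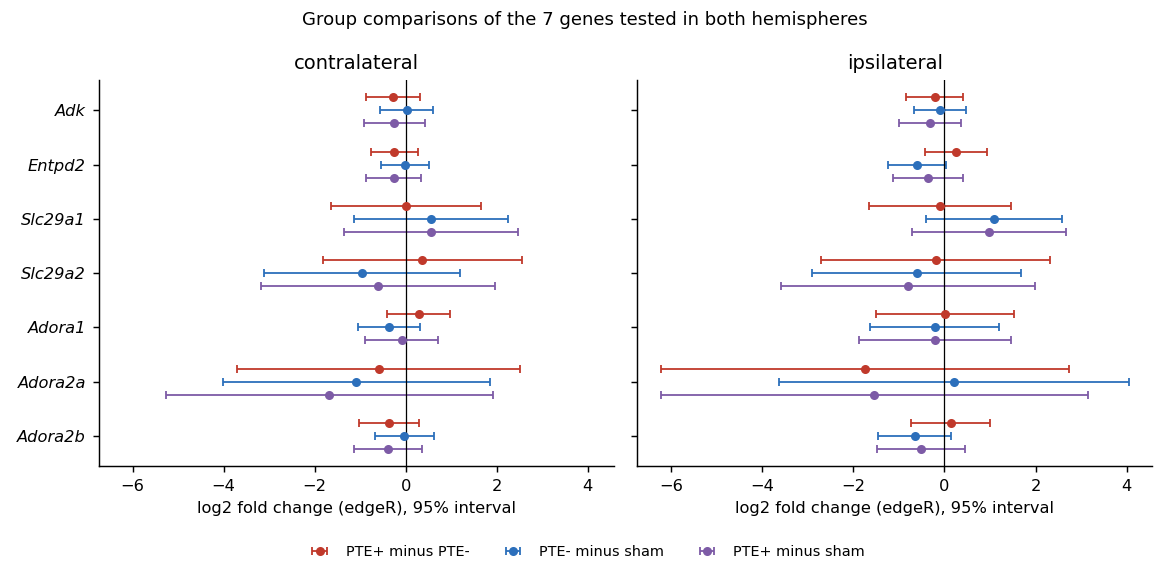
edgeR log2 fold changes (points) with 95% intervals (lines) for the 7 genes tested in both hemispheres, with 1 colour per comparison of groups. Every interval crosses 0.

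Counted over the group comparisons, none of the adenosine genes had an adjusted p under 0.05 in edgeR. On the contralateral side 0 of the 7 tested had an unadjusted p under 0.05 in any comparison, where 2.21% of all genes were under 0.05 for PTE+ against PTE-, 1.54% for PTE- against sham and 1.23% for PTE+ against sham. On the ipsilateral side the counts were 1 of 9, 0 and 0, against 1.75%, 1.58% and 1.66% of all genes. Adjusted calls were as rare over all genes, at 0.00683% for contralateral PTE+ against PTE- (Sema3f alone, with an adjusted p of 0.0453) and 0% in the other 5. The criteria of the study's methods, an unadjusted p under 0.05 with at least 1.2-fold change and a mean TPM above 5 in a compared group, were applied here to the edgeR p, whereas the methods took p from DESeq2. They were met by none of the 9 genes for PTE+ against PTE-, and by 1.26% of all genes on the contralateral and 0.503% on the ipsilateral side. The median log2 fold change of the tested adenosine genes for PTE+ against PTE- was -0.25 contralateral and -0.10 ipsilateral, beside -0.05 and -0.01 over all genes tested. In all 54 comparisons of a gene between groups of a hemisphere the ranges of the groups overlapped. For Ada and Nt5e they had to, as every group held libraries at 0. The share of all genes with overlapping ranges was not computed, so the count does not set these genes apart.

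Whether the impacted side differed from the opposite side was asked in the 17 mice with both libraries. Counts of mice and sign-flip tests compare the sides within each mouse, whereas the edgeR fit had no term for the mouse. Adk was higher on the ipsilateral side in 6 of 17 mice, with a median absolute difference between the sides of 0.31 on the log2(CPM + 1) scale. It was lower on that side in 4 of 5 sham mice, with 1 mouse, a8_15, higher. In PTE- mice the fold change was -0.24 (95% interval -0.72 to 0.24) on the log2 scale, with mouse a8_11 falling from 691 CPM on the contralateral to 208 CPM on the ipsilateral side, the largest difference for Adk between the sides of any mouse. Exact sign-flip tests gave p of 0.5 in PTE-, 0.812 in sham and 0.875 in PTE+ mice, where 4 mice cannot give a p below 0.125.

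Entpd2 was higher ipsilaterally in 9 of 17 mice, Adora2b in 8, Adora1 in 10, Slc29a1 in 9 and Slc29a2 in 13. None of the 9 genes had an unadjusted p under 0.05 for ipsilateral against contralateral in edgeR, where 2.05% of all genes did in sham, 4.56% in PTE- and 2.93% in PTE+ mice, and 0% had an adjusted p under 0.05. For Ada in PTE+ mice this could not come out otherwise, as the 4 mice with both sides were at 0 counts on each. For Slc29a2 the PTE- mean rose from 2.94 to 4.73 on the log2(CPM + 1) scale in the 8 mice with both sides, with an exact sign-flip p of 0.180.

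**Figure D5:**
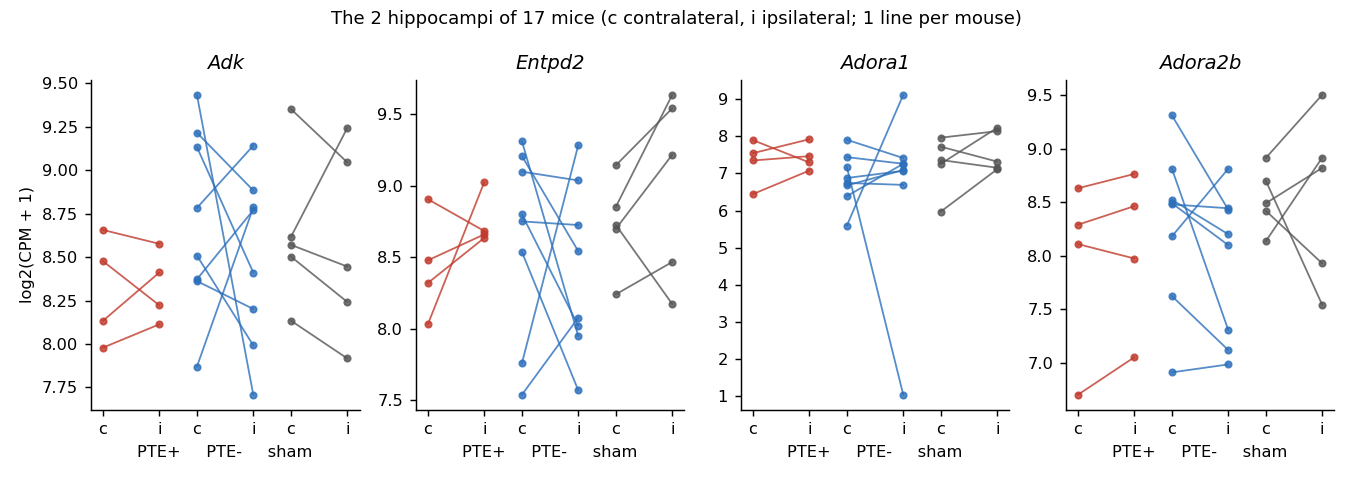
log2(CPM + 1) in both hippocampi of the 17 mice with both libraries, with 1 line per mouse. Lines run up and down in each group, and the ipsilateral Adora1 value of PTE- mouse a8_11 lies far below all others.

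A last set of tests asked whether the difference between the sides itself differed between groups. For PTE- against sham mice, Nt5e alone had an unadjusted p under 0.05 in edgeR (log2 difference of -7.81, unadjusted p = 0.0434, adjusted p = 1), beside 3.13% of all genes. It was higher on the ipsilateral side in 4 of 5 sham mice, by up to 3.79 on the log2(CPM + 1) scale, and in 2 of 8 PTE- mice, and most of these libraries had few counts. With the mouse as a block the value was -5.92 and its p 0.285, and the exact permutation p was 0.129. For PTE+ against PTE- mice none of the 9 genes was under 0.05, where 2.94% of all genes were. Ada gave no interval there, as the PTE+ mice with both sides were at 0 counts on each. For both contrasts 0% of all genes had an adjusted p under 0.05.

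The wider purine pathway was read from a list of 47 genes for nucleotide breakdown, transport, purine salvage and purinergic receptors. At a median of 285 TPM Ahcyl1, a relative of the hydrolase that frees adenosine from S-adenosylhomocysteine, was the most abundant, while that hydrolase itself, Ahcy, was at 0.84. Ak3, an adenylate kinase of mitochondria, was at 167 TPM. The cytosolic nucleotidase Nt5c was at 136 and Alpl, a phosphatase able to make adenosine outside the cell, at 105.0 TPM. Purine nucleoside phosphorylase, Pnp, which takes inosine further to hypoxanthine, was at 98.8. The deaminase relative Adal was at 12.1, and the A3 receptor gene Adora3 at 0.06 TPM. The concentrative transporters Slc28a1 and Slc28a2 were listed at 0 in all libraries. In total 10 of the 47 exceeded the counting limit in all 37 libraries.

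In the contralateral comparison of PTE+ with PTE- mice, 40 of the 47 were tested, 1 was higher and 1 lower at an unadjusted p under 0.05, beside 2.21% of all genes, and none had an adjusted p under 0.05. Against sham mice 1 of the 40 was lower and none higher, beside 1.23%. The gene lower in both was Pnp, at 68.6 ± 29.1 CPM in PTE+ (SD, n = 5), 121 ± 27.3 in PTE- (n = 10) and 121 ± 65.1 in sham mice (n = 5). Its log2 fold change was -0.83 ± 0.31 (SE) against PTE- and -0.82 ± 0.35 against sham, with unadjusted p of 0.0142 and 0.0269 and adjusted p of 1 in each. Pnp was the only gene of the list that met the criteria of the study's methods there. Against PTE- its unadjusted p stayed between 0.00284 and 0.0461 as any 1 library was left out. Against sham it ran from 0.00559 to 0.156, under 0.05 in 5 of 10 such fits, with log2 fold changes of -1.10 to -0.49 (the latter without sham mouse a8_16), and with voom weights the log2 fold change was -0.36 (unadjusted p = 0.170). Ipsilateral means of Pnp were 76.3 ± 32.0 CPM in PTE+ (n = 4) and 99.9 ± 35.5 in PTE- (n = 8), and did not pass the test. The gene higher in PTE+ than in PTE- mice was Entpd3, an ectonucleotidase, with a log2 fold change of 4.91 that rested on 12.2 and 5.16 CPM in 2 PTE+ mice.

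In contralateral PTE- against sham mice 0 of 40 were under an unadjusted p of 0.05, and in the 3 ipsilateral comparisons 0 of 41. The median log2 fold change of the list for PTE+ against PTE- was -0.14 contralateral and -0.05 ipsilateral, beside -0.05 and -0.01 over all genes. Between the sides, Enpp3 was lower on the ipsilateral side in sham mice (log2 fold change -6.78, unadjusted p = 0.0228, where 2.05% of all genes were under 0.05), and Acpp and Entpd3 were higher there in PTE- mice (4.42 and 5.49, unadjusted p = 0.0106 and 0.0490, where 4.56% of all genes were). Each turned on 1 or 2 libraries, up to 6.25 CPM of Enpp3, 10.3 of Acpp and 47.7 of Entpd3, and with the mouse as a block the p were 0.288, 0.935 and 0.756. For the difference between the sides, Acpp differed between PTE+ and PTE- (-7.57, unadjusted p = 0.0116) and Enpp3 and Nt5m between PTE- and sham (6.80 and -1.25, unadjusted p = 0.0375 and 0.0457), with p of 0.209, 0.902 and 0.127 with the block. The shares of all genes under 0.05 for these differences were 2.94% and 3.13%. None of these had an adjusted p under 0.05.

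The genes whose levels most resembled those of a member were sought among 4143 genes above the counting limit in every library, by Pearson's r of log2(CPM + 1) after subtracting each group's mean, over 37 libraries that come from 20 mice and share amplification and depth. Adk was closest to Surf1 (r = 0.82), Tspan7 (0.81) and the astrocyte enzyme Aldoc (0.80), beside a median r of 0.12 over all these genes. Entpd2 was closest to Zfp60 (0.70), the glutamine transporter Slc38a3 (0.69) and Acsl6 (0.65). Adora2b came closest to Gm2a (0.62), Tecr (0.57) and Paqr6 (0.57). For Adora1 the values were 0.90 with Irak1, 0.88 with Nckap1 and 0.87 with Prex1, but the rank correlations were 0.51, 0.59 and 0.66, and the library of mouse a8_11 sits apart. Between the members themselves the highest r was 0.39, for Entpd2 with Adora2b, and that of Adk with Entpd2 was 0.13.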

How the data were processed

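The authors trimmed reads with Trim Galore 0.6.4 and estimated counts per gene with RSEM 1.2.28 and Bowtie2 2.4.1 on mm10, and the deposited expected counts are whole numbers without normalization. The deposited TPM are from the same RSEM estimates, scaled per transcript length and to a fixed total. Per the submitters' processing notes DESeq2 1.36.0 was then used. The methods name no molecular identifiers and no strand setting, so counting limits cover counting error only and overlapping genes cannot be told apart by strand. GENCODE on GRCm38, which is the same assembly as mm10, gave symbols and positions. No column of the tables was left unused.

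The counts were fitted with edgeR 4.0.16 under R 4.3.3 (filterByExpr, TMM, quasi-likelihood F test) in a fit of the 3 groups of a hemisphere, with 14642 genes tested contralaterally and 14903 ipsilaterally. A fit of 15731 genes over the 34 libraries of the 17 mice with both sides gave the comparisons of hemispheres and of side differences. It had no term for the mouse and so did not use the pairing, which entered only in the alternative with the mouse as a block. With the block, 52 genes in sham, 315 in PTE- and 120 in PTE+ mice had an unadjusted edgeR p under 0.05 between the sides. Without it the numbers were 323, 717 and 461. P-values were adjusted by Benjamini and Hochberg over all genes tested. Intervals are the log2 fold change ± its SE times the t quantile of the fit. Single genes were also tested by exact two-sided permutation of group labels, or of signs within mice, on log2(CPM + 1), 99 tests with unadjusted p. The libraries of a mouse come from the same animal and so are paired. The correlation of their deviations from the group means over 4144 genes had a median of 0.17, from -0.09 to 0.43. No libraries were identical.

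The genes and lists were chosen with earlier results of these data known. Named genes are all 9 members in each comparison, the listed pathway genes with an unadjusted p under 0.05, and the 3 genes most like each member with more than 3 counts in all 37 libraries. Pathway genes named for their level alone, and the libraries named, were chosen after their values were seen. Alternatives were RLE size factors, no filter, DESeq2 1.42.0, voom of limma 3.58.1 with sample weights, limma fits of log2(TPM + 1) or log2(TPM + 0.1) and with a TPM filter, the 2 groups alone, a covariate for the name prefix or for how many genes were detected, the mouse as a block, and leaving out each library or mouse. The edgeR procedure was run on simulated counts with a far smaller spread between libraries than in the data. The common biological coefficient of variation of the data was 1.32 contralaterally and 1.40 ipsilaterally. The simulation therefore does not show how the procedure performs at that spread or for sparse genes. Python 3.11.15 with matplotlib 3.10.9 drew the figures.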

Additional observations from a re-analysis of the deposited data

Results flagged for a closer look

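In a group of 4 to 10 libraries, a single value that stood far from the rest (Dixon's test at 95%, log2(CPM + 1) scale) was found in 15 of 53 groups of a gene. The test flags about 1 in 20 by chance where values are normally spread. A group at 0 in all libraries but 1 is flagged whatever that value is, so the count cannot be set against that rate. Most were genes near the counting limit. For Nt5e the highest contralateral values were 5.01 CPM in PTE+ mouse a9_19, 8.09 in PTE- mouse a9_16 and 0.185 in sham mouse a8_15. For Ada they were 6.45 CPM in contralateral PTE+ mouse a8_17, 3.91 in PTE- mouse a8_11 and 0.115 in sham mouse a9_10, and on the ipsilateral side 13.6 in PTE- mouse a9_16 and 2.02 in sham mouse a9_11.

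Among the better expressed genes, low values stood out for Slc29a1 in contralateral PTE- mouse a8_9 (0.056 CPM) and sham mouse a8_16 (0.916), for Slc29a2 in ipsilateral PTE+ mouse a9_19 (0.019) and PTE- mouse a8_11 (0 CPM), for Adora1 in ipsilateral PTE- mouse a8_11 (1.04) and for Adora2b in contralateral PTE+ mouse a9_18 (103). Entpd2 was high in ipsilateral PTE+ mouse a9_18 (520.1 CPM).

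The difference between the sides in Nt5e differed between PTE- and sham mice by a log2 value of -7.81 at an unadjusted p under 0.05, and did not with the mouse as a block or by permutation.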

How the results depend on the processing

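Of 336 fold changes recomputed under the alternatives that keep all libraries, 325 kept their direction and their side of the threshold, and of 440 with a library or mouse left out 422 did. The number of adenosine genes with an adjusted p under 0.05 stayed at 0 in each of the 116 fits with a library or mouse left out, and became 1 with DESeq2 in ipsilateral PTE+ against PTE- and in ipsilateral PTE+ against sham (Ada in both, at 0 counts in all PTE+ libraries). Over all genes DESeq2 called 99 and 85 of 16933 there. Adk turned in sign in 3 comparisons. For contralateral PTE- against sham it was -0.12 on log2(TPM + 1), -0.12 on log2(TPM + 0.1) and -0.12 with the TPM filter, and -0.098 to 0.25 without single libraries. For ipsilateral PTE+ against PTE- it was 0.0024, 0.0027 and 0.0024 in the same 3 settings. The medians over all genes in these settings were -0.22, -0.36 and -0.25 for contralateral PTE- against sham. For ipsilateral PTE+ against PTE- they were 0.25, 0.40 and 0.34. For ipsilateral PTE- against sham Adk was 0.0042 with voom weights and -0.25 to 0.077 without single libraries. Voom weights also turned Slc29a1 in ipsilateral PTE- against sham (-0.062) and the Enpp3 side difference of PTE- against sham (-0.27). For ipsilateral PTE+ against PTE-, leaving out single libraries gave -0.18 to 0.55 for Adora1 and -0.12 to 0.38 for Adora2b. The cause of these turns was not tested. With the mouse as a replicate block Adk in PTE- mice was -0.22 between the sides, and the pairing changed no call at an adjusted p under 0.05. Without the block, and with it, 0 of the 9 genes passed in the 5 comparisons of sides. Ada and Nt5e rested on few libraries above 3 counts (7 and 12 of 37), and a difference in them was not detectable beyond the counting limit of those at 0. Where filtering left Ada or a pathway gene out of a fit, that fit gave no value.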
